A study of Mus musculus with 10 samples.

Results

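Transcripts of 6 genes of Schwann cells and their myelin, Pmp22, Mbp, Sox10, Prx, Ngfr and Gfra3, were measured in mouse femur at 2 ages. They were chosen by name, as the entries with these symbols among the 38962 genes of the deposited table, and all 6 were present and passed the filter on low counts. Aged bone was compared with young bone to ask how the transcripts of nerve-associated cells in bone differed with age. Young libraries came from 5 male C57BL/6J mice aged 2 months and aged libraries from 5 male C57BL/6J mice aged 22 months, with no transgene and no drug given. Total RNA was taken from pulverized femur whose marrow had been flushed out, ribosomal RNA was depleted and polyadenylated RNA was selected, and each mouse gave 1 library. Young mice were bought from the Jackson Laboratory, whereas aged mice came from the National Institute on Aging colony and were kept in house until they were used, so age and supplier cannot be told apart. P-values here measure the spread between these mice.

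Schwann cells are the glia of peripheral nerves. Myelinating Schwann cells wrap an axon segment in compacted membrane, and non-myelinating (Remak) Schwann cells ensheath bundles of thin axons. Nerves enter long bones through the periosteum and along the nutrient vessels, and most fibres in bone are thin sensory or sympathetic axons. Of the genes described, Pmp22, Mbp and Prx encode proteins of the myelin sheath, Sox10 encodes the transcription factor that the lineage depends on, and Ngfr and Gfra3 encode receptors found mostly on immature and non-myelinating Schwann cells. Several of them have other sources too. Pmp22 is made by fibroblasts, Ngfr by reticular stromal cells of marrow, Sox10 by melanocytes, and the Mbp locus also gives the Golli transcripts of blood cells, which counts per gene do not separate from the myelin forms. In a whole bone, fewer cells of a type and less RNA per cell cannot be told apart.

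The starts of Ngfr, Prx and Pmp22, the 3 genes with a RefSeq promoter used here, are shown first. Ngfr and Prx had the largest differences between the ages, while Pmp22 had the highest level per length. Each line gives the 250 bases before a RefSeq transcription start on GRCm38.p6, read 5′ to 3′ on the strand of the gene, with capitals for a match to 1 of 5 motifs on either strand. The windows are chr11:95587699-95587948 on the minus strand for Ngfr, chr7:27499074-27499323 on the plus strand for Prx and chr11:63128732-63128981 on the plus strand for Pmp22, this one at the first of 4 RefSeq starts and at the gene start of the table. The Prx window lies inside the gene as counted, which begins at base 27497388, before the RefSeq start at 27499324.
Ngfr: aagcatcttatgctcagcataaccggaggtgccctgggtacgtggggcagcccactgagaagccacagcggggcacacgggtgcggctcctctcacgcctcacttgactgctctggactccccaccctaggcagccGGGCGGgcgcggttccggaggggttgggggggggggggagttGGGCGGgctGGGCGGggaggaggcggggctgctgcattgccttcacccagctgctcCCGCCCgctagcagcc
Prx: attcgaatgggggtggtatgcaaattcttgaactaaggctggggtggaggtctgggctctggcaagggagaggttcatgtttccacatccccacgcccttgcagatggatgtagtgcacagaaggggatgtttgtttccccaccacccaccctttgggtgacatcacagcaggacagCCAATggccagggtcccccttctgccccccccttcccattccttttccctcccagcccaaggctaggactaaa
Pmp22: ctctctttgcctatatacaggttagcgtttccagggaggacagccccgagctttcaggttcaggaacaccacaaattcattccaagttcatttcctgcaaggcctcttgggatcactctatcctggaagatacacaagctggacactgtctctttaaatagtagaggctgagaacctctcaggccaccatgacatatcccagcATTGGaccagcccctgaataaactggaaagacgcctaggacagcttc
The motifs searched were the GC box GGGCGG, the CCAAT box, the TATA box TATAAA, the SOX words ACAAAG and ACAATG, and the EGR word GCGNGGGCG, which can overlap a GC box. The Ngfr window held 4 GC boxes, 114, 72, 63 and 16 bases before the start, and was 70.4% G and C, against a median of 52.4% over all promoter windows. The Prx window (56.4% G and C) held 1 CCAAT box 73 bases before the start, and the Pmp22 window (48.8%) held 1 on the opposite strand 47 bases before it. Of the other 3 RefSeq starts of Pmp22, the second (61.2% G and C) and the fourth (73.6%) each had 3 GC boxes in their windows, and the third (64.8%) had none. A GC box was found in 32.7% and a CCAAT box in 33.8% of the 32851 promoter windows, so both are common. The SOX words (25.2% of windows), the EGR word (4.70%) and the TATA box (12.4%) were not found in the 3 windows printed, which says only that these letters were not there.

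The libraries held 33447009 to 40395050 counts in young and 31788232 to 45075335 in aged mice, and 1 count was worth 0.0199 to 0.0380 CPM, that is counts scaled by library size and by the trimmed mean of M values (TMM). The noncoding RNA Gm26917 took 14.5 to 24.0% of the counts of young and 16.1 to 31.0% of those of aged libraries, with aged 3 and aged 4 the highest. By the quasi-likelihood test of edgeR, 1610 of 22088 tested genes (7.29%) reached an adjusted p of 0.05 or less and are referred to as called, 812 higher (3.68%) and 798 lower (3.61%) in aged bone. With scaling by total counts alone the split was 285 higher and 917 lower, and the median log2 fold change of all genes was -0.16 against 0.01 with TMM. The number called fell to 686 without young 2, 814 without young 4 and 949 without aged 3. DESeq2 called 2828 genes.

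None of the 6 genes was called by edgeR. Ngfr and Prx had the largest differences and were the 2 genes with an unadjusted p under 0.05, a level that 25.7% of all tested genes passed. DESeq2 called both of them higher in aged bone and limma-voom called neither. The paper, which used DESeq2 on the same libraries, also lists both as higher in aged bone. Young and aged libraries overlapped for each of the 6 genes, while they did not overlap for 7.80% of all tested genes. The median log2 fold change of the 6 genes was 0.30, with 4 above and 2 below 0.

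**Figure D1:**
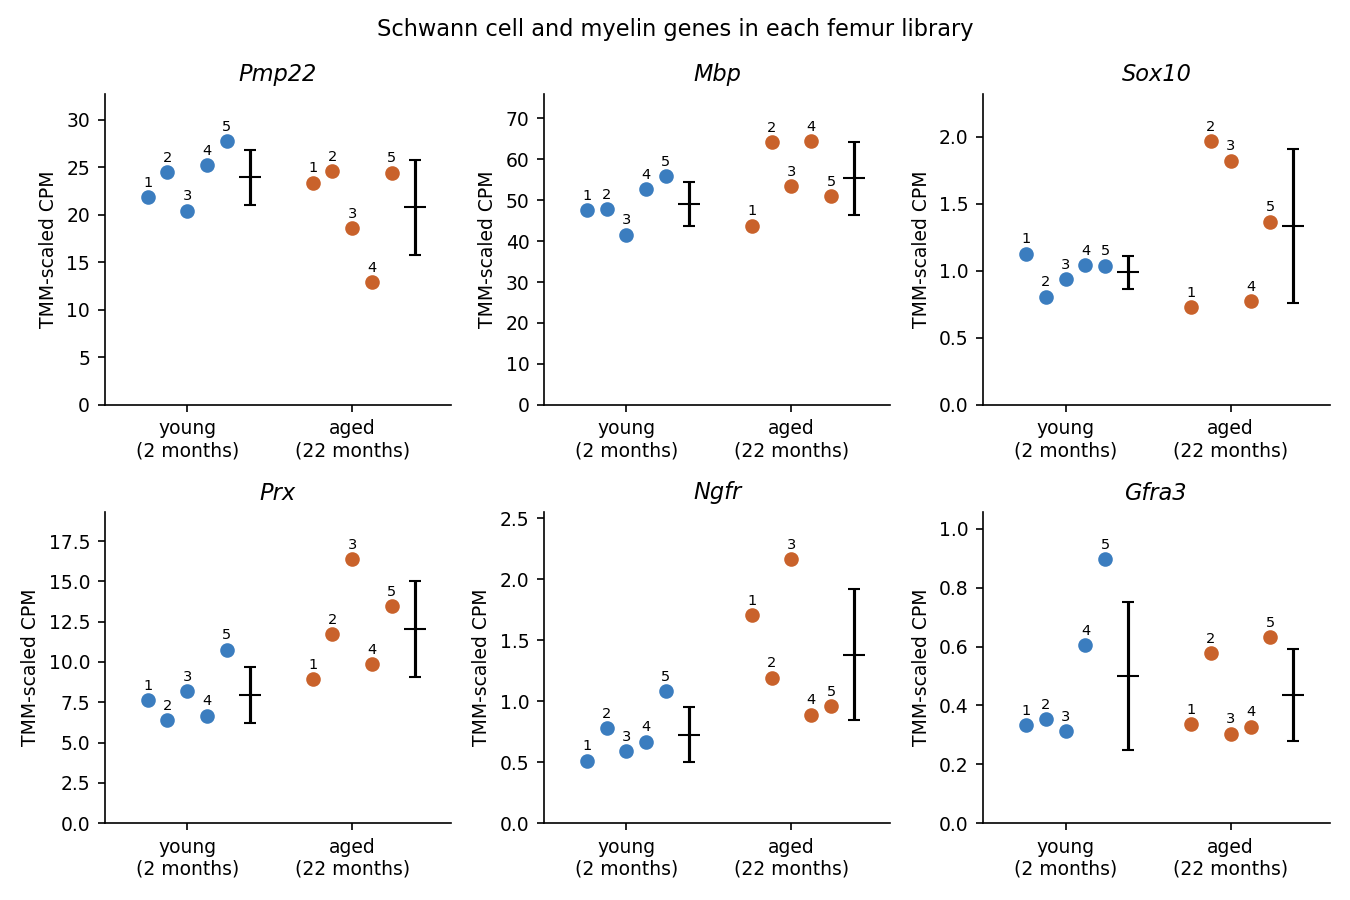
CPM of each of the 6 genes in the 5 young and 5 aged libraries, 1 point per mouse, with the group mean and SD. Young and aged points overlap in every panel, and the aged points spread more widely than the young ones for Sox10, whose aged libraries run from 0.727 to 1.97 CPM.

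Prx encodes periaxin, a scaffold protein that links the myelinating Schwann cell membrane to its cytoskeleton through Drp2. Its level in young 1 to young 5 was 7.65, 6.40, 8.18, 6.66 and 10.8 CPM, and in aged 1 to aged 5 it was 8.92, 11.7, 16.4, 9.87 and 13.5 CPM. Young 5 lay above aged 1 and aged 4, and the other 4 young libraries lay below all aged ones. The mean was 7.93 ± 1.74 CPM (SD, n = 5) in young and 12.1 ± 2.97 CPM (SD, n = 5) in aged bone, from 236 to 456 and 319 to 589 counts per library. The log2 fold change of aged over young was 0.60 (SE 0.18, 95% interval from 0.25 to 0.96), a 1.52-fold difference that missed the threshold (edgeR, adjusted p = 0.0591). It passed with DESeq2 (adjusted p = 0.0207) and not with limma-voom (adjusted p = 0.0690). It also passed in edgeR without young 5 (adjusted p = 0.0269), without aged 1 (adjusted p = 0.0372) or without aged 4 (adjusted p = 0.0463). These are the libraries in which the ages overlapped, and only 3 of 10 fits without 1 library passed (edgeR, adjusted p up to 0.153). Prx (ENSMUSG00000053198.14) spans bases 27497388 to 27520214 of chromosome 7 in the table. The lncRNA Gm15541, annotated on the opposite strand, lies inside it with 194 counts over all libraries against 3855 for Prx. How strand was treated in the counting is not stated, so reads of the pair may not be separated.

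Mbp encodes myelin basic protein, which holds the cytoplasmic faces of myelin together. The 5 young libraries had 47.6, 47.8, 41.6, 52.7 and 55.9 CPM, and the aged ones 43.7, 64.2, 53.5, 64.5 and 51.0 CPM. Aged 2 and aged 4 lay above all young libraries, whereas aged 1 was lower than 4 of the 5 young ones. Means were 49.1 ± 5.47 and 55.4 ± 8.94 CPM (SD, n = 5 each), with a log2 fold change of 0.17 (SE 0.12, interval from -0.07 to 0.41, edgeR adjusted p = 0.393). With total counts alone the log2 fold change of Mbp was 0.01. Mbp had the highest counts of the 6 genes (1199 to 3226 per library), and a doubling or a halving lies outside its interval. Its gene (ENSMUSG00000041607.17) covers bases 82475146 to 82585637 of chromosome 18, with the pseudogene Rpl21-ps8 (306 counts) inside it.

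Pmp22 encodes a membrane-spanning protein of compact myelin whose copy number is critical for peripheral nerve. It measured 21.9, 24.5, 20.4, 25.2 and 27.8 CPM in the young and 23.3, 24.6, 18.6, 12.9 and 24.4 CPM in the aged libraries. Aged 4 was the lowest of all 10, and without it the aged values fell within or just below the young range. The means of 23.9 ± 2.88 and 20.8 ± 5.03 CPM (SD, n = 5 each) gave a log2 fold change of -0.21 (SE 0.16, interval from -0.52 to 0.11, edgeR adjusted p = 0.447). It was -0.07 without aged 4. Pmp22 (ENSMUSG00000018217.12) lies at bases 63128982 to 63159547 of chromosome 11.

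Sox10 encodes the transcription factor that Schwann cells need at every stage. Young libraries ranged narrowly, with 1.13, 0.806, 0.936, 1.04 and 1.04 CPM, and aged libraries widely, with 0.727, 1.97, 1.82, 0.773 and 1.37 CPM. Aged 2, aged 3 and aged 5 lay above all young libraries, and aged 1 and aged 4 lay below all of them. The coefficient of variation was 12.5% in young and 43.2% in aged bone, at 27 to 50 and 26 to 99 counts per library. At so few counts, counting error is part of this spread, and a difference in spread between the ages was not tested. The log2 fold change was 0.42 (SE 0.28, interval from -0.13 to 0.98, edgeR adjusted p = 0.370). Sox10 (ENSMUSG00000033006.10) is on the minus strand of chromosome 15, bases 79154908 to 79165240.

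Ngfr encodes p75, the low-affinity receptor that binds all neurotrophins. The young libraries had 0.513, 0.781, 0.589, 0.668 and 1.08 CPM and the aged ones 1.71, 1.19, 2.16, 0.891 and 0.962 CPM. Young 5 lay above aged 4 and aged 5, and the other 4 young libraries lay below all aged ones. The means of 0.727 ± 0.223 and 1.38 ± 0.541 CPM (SD, n = 5 each) rest on 17 to 46 counts per young and 38 to 61 per aged library. The log2 fold change of 0.90 (SE 0.29, interval from 0.33 to 1.47), or 1.86-fold, missed the threshold (edgeR, adjusted p = 0.0755). It passed with DESeq2 (adjusted p = 0.0290) and in edgeR without young 5 (adjusted p = 0.0453) or without aged 4 (adjusted p = 0.0493), and not with limma-voom (adjusted p = 0.104). Both of these libraries lay in the overlap of the ages, and only 2 of 10 fits without 1 library passed (edgeR, adjusted p up to 0.176). The gene (ENSMUSG00000000120.6) covers bases 95568818 to 95587735 of chromosome 11.

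Gfra3 encodes the co-receptor that binds artemin and signals through Ret. It was the rarest of the 6 transcripts, with 8 to 38 counts per library and 191 in all. Levels were 0.334, 0.353, 0.312, 0.605 and 0.896 CPM in young and 0.336, 0.577, 0.304, 0.328 and 0.633 CPM in aged libraries. Each group held 3 libraries between 0.304 and 0.353 CPM and 2 higher ones. The log2 fold change was -0.20 (SE 0.36, interval from -0.90 to 0.51, edgeR adjusted p = 0.764), and without young 5 it was 0.12. The data are compatible with any difference within that interval. Gfra3 (ENSMUSG00000024366.8) is on chromosome 18, bases 34689898 to 34720387.

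**Figure D2:**
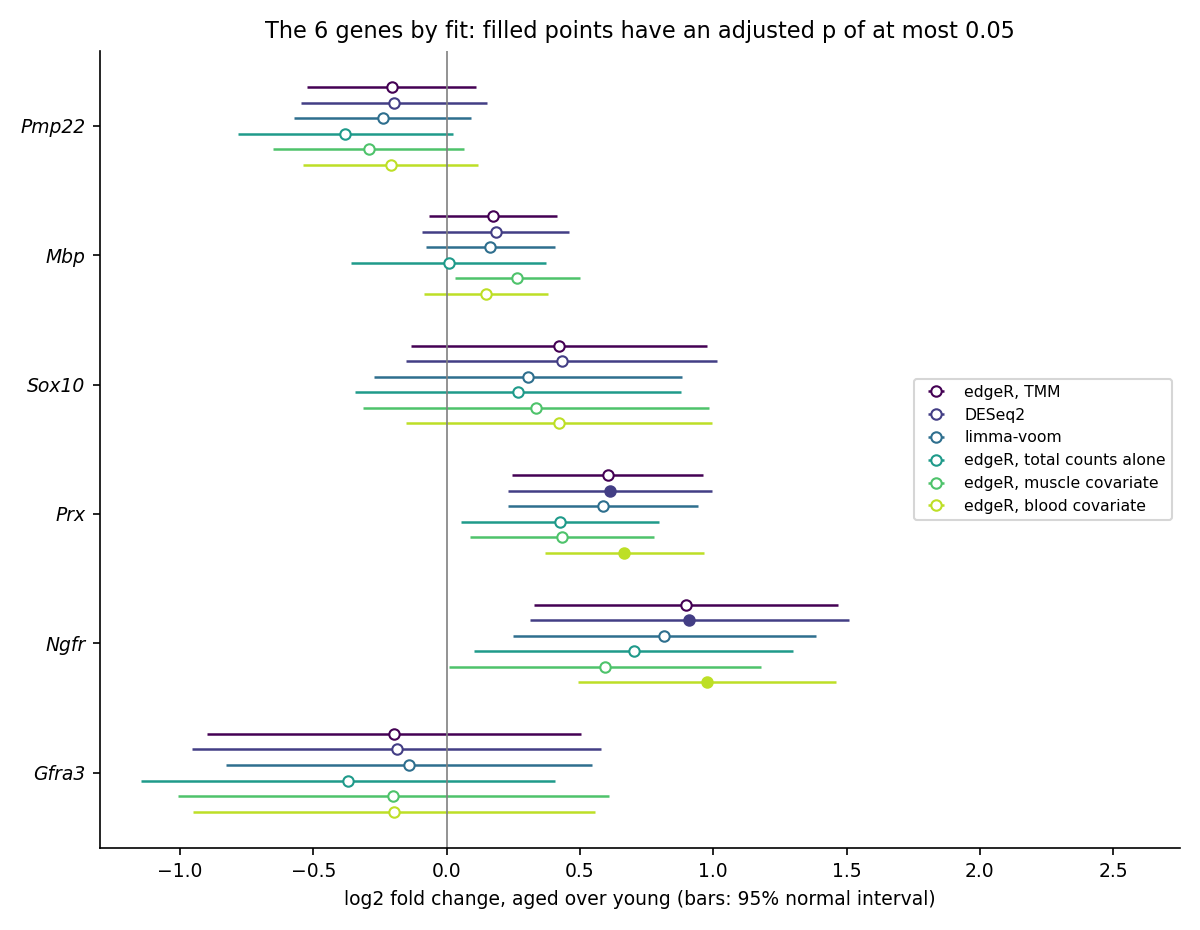
Log2 fold change of aged over young bone for each of the 6 genes (x axis) with normal 95% intervals, in 6 fits (edgeR, DESeq2, limma-voom, and edgeR with total counts alone or with a muscle or blood covariate). Points are filled at an adjusted p of at most 0.05. The intervals of Prx (0.25 to 0.96 in edgeR) and Ngfr (0.33 to 1.47) lie above 0, and these 2 genes have filled points with DESeq2 and with the blood covariate.

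Young 5 had the highest young level of 5 of the 6 genes, Sox10 being the exception, and aged 1 had the lowest aged level of 3. With total counts alone Prx had a log2 fold change of 0.43 (adjusted p = 0.181) and Ngfr one of 0.70 (adjusted p = 0.172), against the all-gene median of -0.16 under that scaling.

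Per kilobase of gene model, Pmp22 was the most abundant of the 6 transcripts. Its level per kilobase was 10.2 ± 1.22 CPM (young) and 8.82 ± 2.14 CPM (aged; SD, n = 5 each), followed by Mbp with 5.80 ± 0.646 and 6.54 ± 1.06. Prx came next with 1.40 ± 0.307 and 2.13 ± 0.524 CPM per kilobase. Sox10 (0.325 ± 0.0405 and 0.436 ± 0.189), Ngfr (0.211 ± 0.0648 and 0.401 ± 0.157) and Gfra3 (0.250 ± 0.126 and 0.218 ± 0.0783) formed the lower end. The ranges of Mbp, Prx and the lower 3 genes did not meet at either age. Pmp22 and Mbp were separate in young libraries (8.67 to 11.8 against 4.91 to 6.60 CPM per kilobase) and overlapped in aged ones (5.48 to 10.4 against 5.16 to 7.62). Neighbours among Sox10, Ngfr and Gfra3 overlapped.

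**Figure D3:**
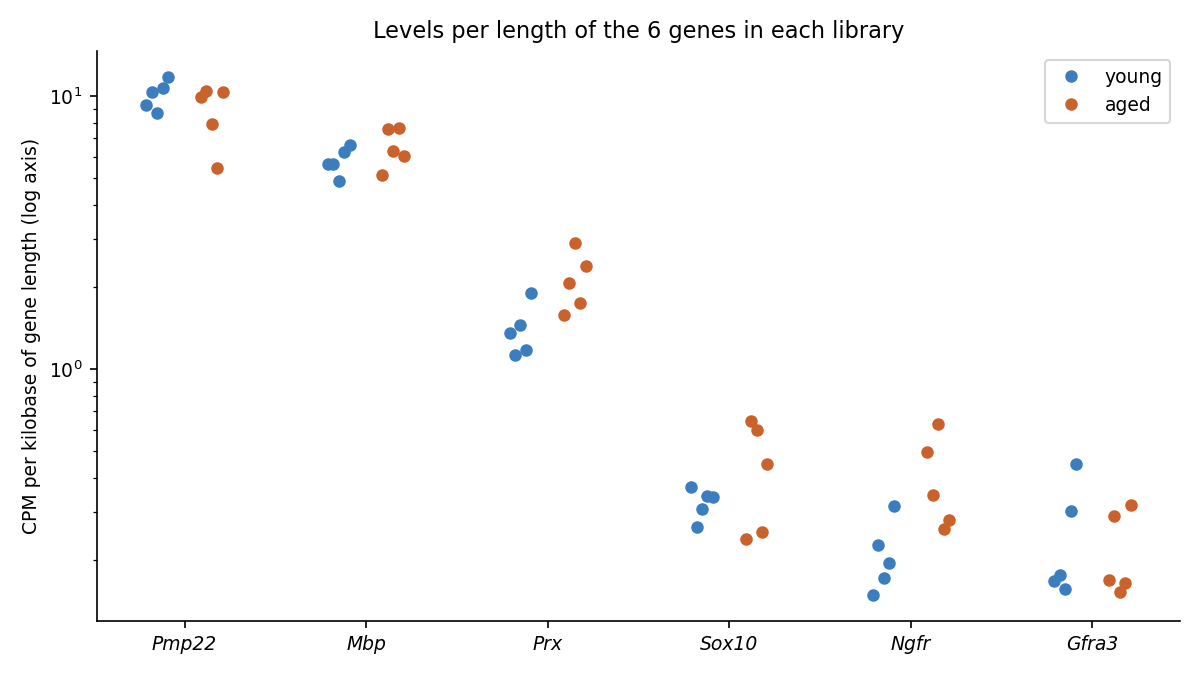
CPM per kilobase (log axis) of the 6 genes in every library, 1 point per mouse, young beside aged. The 3 myelin protein genes sit above Sox10, Ngfr and Gfra3 at both ages, and Pmp22 and Mbp overlap among the aged libraries.

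Whether 2 of the genes differed in their change with age was tested on their log2 difference within each library, over 15 pairs. None passed after adjustment over the 15 pairs (two-sided exact permutation test, smallest possible p 0.00794). A single pair at that smallest p gets an adjusted p of 0.119 in this test and cannot pass. Not passing therefore does not measure how far apart the changes of 2 genes lay. The most separated pair was Pmp22 and Ngfr, the former higher by 4.98 log2 units in young and 3.90 in aged bone, a shift of -1.08 (exact permutation p = 0.00794, adjusted p = 0.119). The shift between Pmp22 and Prx was -0.83 (exact permutation p = 0.0238, adjusted p = 0.179), and Ngfr shifted against Gfra3, the other receptor, by 0.98 (exact permutation p = 0.0476, adjusted p = 0.208). In the fit without aged 1, the shifts of Pmp22 against Sox10 (-0.78), Prx (-0.98) and Ngfr (-1.04) each had an adjusted exact permutation p of 0.0397. That fit is named because pairs passed in it, which happened in no other fit. Pairs with tied p-values share an adjusted value that a single pair cannot reach.

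Variation between mice of one age was compared after the group means were removed, over 10 libraries and 15 pairs. Pmp22 and Gfra3 varied together by rank, with a Spearman rho of 0.818 (exact permutation p = 0.00215, adjusted p = 0.0323), while their Pearson r of 0.636 did not pass (exact permutation p = 0.0203, adjusted p = 0.305). Without the 2 libraries farthest from the median of Pmp22 the r was 0.803. Sox10 and Prx had the highest r (0.664, adjusted exact permutation p = 0.529), with a rho of 0.648, and it was 0.192 without 2 libraries. No other pair passed on either measure.

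The genes whose level between mice of one age was most like that of each gene are given as a description, by Pearson r of log2 CPM over 10 libraries among 17043 genes of at least 1 CPM on average. For Pmp22 they were Gabarapl1 (r = 0.983), Adgrg6 (0.970), Pcbd2 (0.964), Smoc2 (0.956) and Mrgprf (0.952). Adgrg6, the adhesion receptor that starts myelination in Schwann cells, was the only one of these that is also in the lists of nerve genes. For Mbp the nearest were Pacs1 (0.985), Pi16 (0.981), Jpt1 (0.970), Agpat2 (0.964) and Chrna2 (0.961). Those of Sox10 were Brinp2 (0.940), Espl1 (0.928), Ccdc27 (0.912), Gm47926 (0.912) and Apeh (0.894). Prx was followed by Plekhh3 (0.963), Gm10524 (0.963), Foxj2 (0.952), Rnf126 (0.952) and Tmem200b (0.949). For Ngfr the genes were Tro (0.932), Polr2c (0.930), Gm43268 (0.922), B930059L03Rik (0.921) and Gm10435 (0.910), and for Gfra3 they were Tmem129 (0.939), Gm11365 (0.939), Best1 (0.933), Gm39041 (0.933) and Gstt1 (0.931).

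Over 29 other tested genes of myelin, the lineage and the Schwann cell surface, the median r was 0.380 with Prx, 0.267 with Pmp22 and 0.265 with Sox10, against medians of 0.00450, 0.0247 and 0.0112 over all tested genes. With Mbp it was -0.213, with 10 of the 29 positive, and with Ngfr it was 0.000159. Single values, picked after they were seen, were highest between Sox10 and the tight junction gene Cldn19 (0.883), between Prx and the neuregulin receptor Erbb3 (0.870) and between Mbp and Cnp (0.829). The same 10 libraries stand behind each r, and these values carry no test.

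Other genes of peripheral myelin were mixed. Of 13 tested, 1 rose, 1 fell and 11 were not called, where 3.68% of all tested genes rose and 3.61% fell. Their median log2 fold change was 0.42, against 0.01 over all genes. Nfasc, which encodes the neurofascins of the node of Ranvier, rose from 1.42 ± 0.351 to 4.01 ± 1.71 CPM (log2 fold change 1.49, SE 0.31, edgeR adjusted p = 0.0127). Its young libraries reached at most 1.73 CPM, and aged 4 (1.57) was the 1 aged library below that. Cnp, which encodes an enzyme attached to the inner face of myelin and is made in many other cells, fell from 43.9 ± 2.02 to 31.6 ± 4.44 CPM (log2 fold change -0.47, SE 0.10, edgeR adjusted p = 0.0159). Its groups did not overlap, as in 7.80% of all tested genes, and it missed the threshold without young 4 (adjusted p = 0.0527).

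Among 7 tested transcription factors of the lineage, 1 rose and none fell, against 3.68% and 3.61% of all tested genes. Pou3f1, the factor of the promyelinating stage, rose from 0.242 ± 0.108 to 0.863 ± 0.350 CPM (log2 fold change 1.84, SE 0.38, edgeR adjusted p = 0.0126). This call rests on 210 counts over all libraries. The young libraries lay between 0.0835 and 0.385 CPM and the aged between 0.447 and 1.37 CPM. The groups thus did not overlap, as in 7.80% of all tested genes. Of 9 tested genes of non-myelinating, immature or all Schwann cells, 1 rose and 1 fell (3.68% and 3.61% over all genes). L1cam, an adhesion molecule of Remak cells and axons, rose from 10.8 ± 1.10 to 16.4 ± 1.78 CPM (log2 fold change 0.61, SE 0.11, edgeR adjusted p = 0.00665). With total counts alone L1cam was not called (adjusted p = 0.143). In the same list Cdh2, N-cadherin, which osteoblasts make as well, fell from 54.3 ± 12.2 to 28.3 ± 7.56 CPM (log2 fold change -0.94, SE 0.20, edgeR adjusted p = 0.0161).

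No gene of the injury response of Schwann cells was called among 6 tested, with 2 at an unadjusted p under 0.05, the level that 25.7% of all tested genes passed. Its most abundant members were Jun (33.4 to 35.4 CPM, edgeR adjusted p = 0.793) and Lif (4.56 to 3.25 CPM, adjusted p = 0.275). The low-count filter left out Gap43 (36 counts over all libraries), Olig1 (11), Shh (32) and Ccl2 (92) of that list of 10. The paper lists Shh as higher in aged bone, and here it averaged 0.00943 CPM in young and 0.159 CPM in aged libraries. None of 8 genes of neuregulin and Adgrg6 signalling was called, with 2 (of all genes 25.7%) at an unadjusted p under 0.05, and the proteases Adam17 and Bace1 gave edgeR adjusted p-values of 0.570 and 0.152.

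For the receptors, the partners were counted separately. Of 12 tested neurotrophins, Trk receptors and partners of Ngfr, 1 rose and 1 fell, against 3.68% and 3.61% of all tested genes. Ntrk3, the receptor of neurotrophin-3, rose from 1.77 ± 0.483 to 4.20 ± 1.71 CPM (log2 fold change 1.24, SE 0.29, edgeR adjusted p = 0.0217), and missed the threshold without young 2 (adjusted p = 0.0607), young 4 (0.0545) or aged 3 (0.0509). Maged1, a cytoplasmic partner of p75, fell from a mean of 92.0 CPM (range 79.4 to 113) to one of 57.1 CPM (range 43.3 to 76.5; log2 fold change -0.69, SE 0.14, edgeR adjusted p = 0.0117). Of 7 tested GDNF family ligands and receptors, 1 fell (3.61% over all genes). Gfra2, the neurturin co-receptor, fell from 8.96 ± 1.66 to 6.15 ± 0.696 CPM (log2 fold change -0.54, SE 0.14, edgeR adjusted p = 0.0361), a call that ended in 9 of 10 fits without 1 library (adjusted p up to 0.0895). The direct partners of Gfra3, named after their values were seen, were not called: Ret had 3.83 and 3.35 CPM (edgeR, adjusted p = 0.533) and its ligand Artn 1.81 and 2.13 CPM (adjusted p = 0.557) in young and aged bone.

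**Figure D4:**
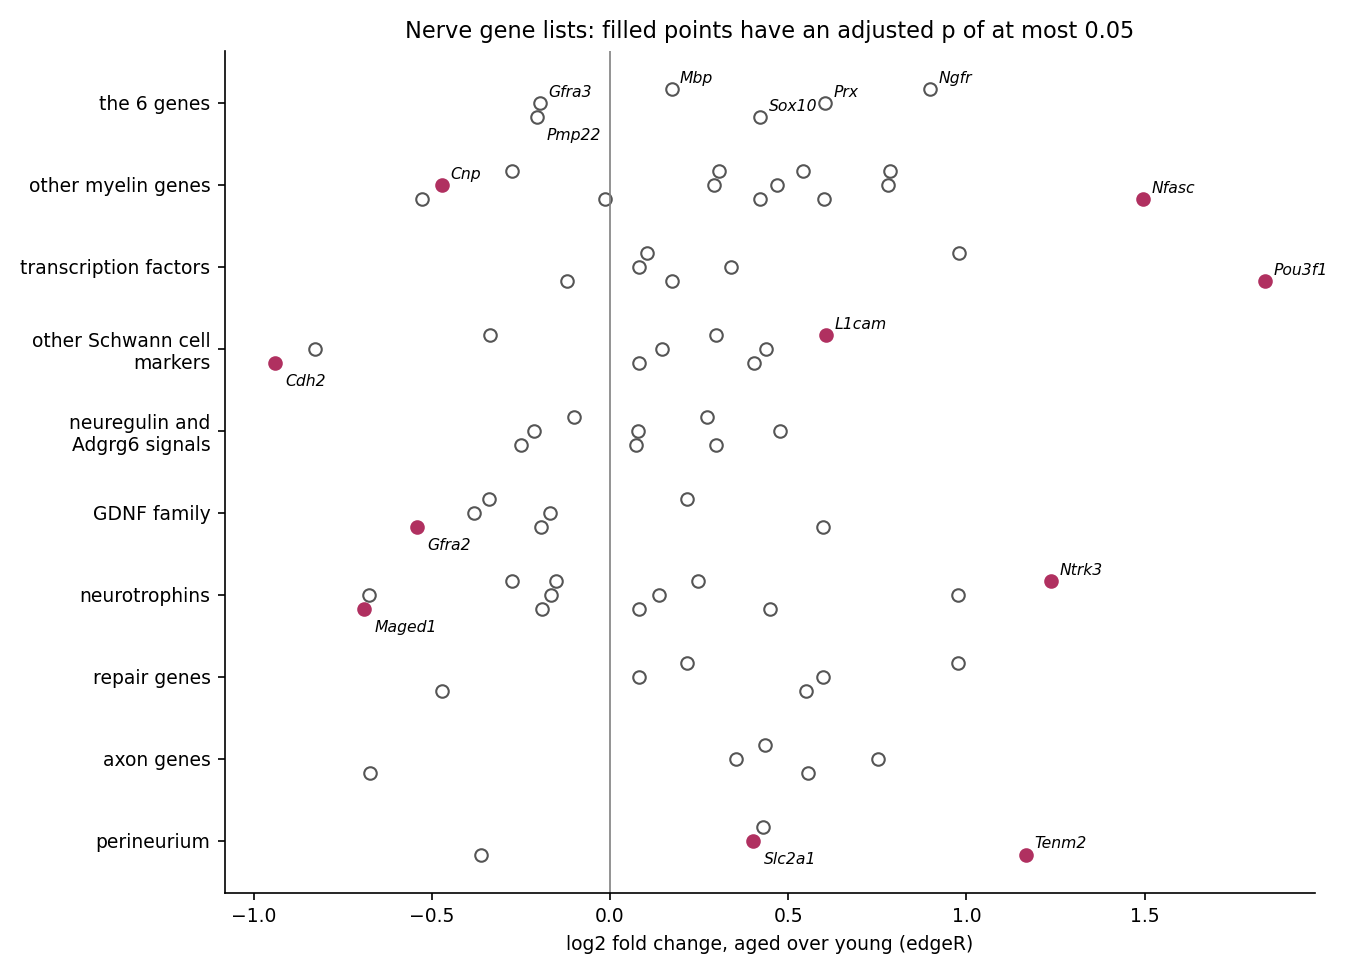
Log2 fold change of aged over young bone for each tested gene of the nerve lists, 1 row per list, by edgeR. Called genes are filled and named, and the 6 genes are named and open. The 10 called genes lie on both sides of 0 among myelin genes, other Schwann cell markers and neurotrophin partners.

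Axons and other sheath cells were measured by their own markers. Of 17 axon and neuron genes 5 were tested and none was called, with 2 at an unadjusted p under 0.05 (25.7% over all genes), and 10 of the 16 in the table had under 50 counts over all libraries. Uchl1, the most abundant, had 6.07 ± 1.44 CPM in young and 10.2 ± 6.51 CPM in aged bone (edgeR, adjusted p = 0.265), and the neurofilament gene Nefh had 1.51 and 2.03 CPM (adjusted p = 0.166). Of 4 tested markers of the perineurium, the cell layer around a nerve bundle, 2 rose (3.68% over all genes). Slc2a1, a glucose transporter of many cells, rose from 9.49 ± 1.16 to 12.5 ± 0.972 CPM (log2 fold change 0.40, SE 0.11, edgeR adjusted p = 0.0488). Tenm2 rose from 0.487 ± 0.107 to 1.10 ± 0.405 CPM (log2 fold change 1.17, SE 0.30, edgeR adjusted p = 0.0306). Both calls ended in most fits without 1 library, 9 of 10 for Slc2a1 (adjusted p up to 0.131) and 7 of 10 for Tenm2 (up to 0.0746).

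Markers of other cells that use these genes were mostly rare, with 1 abundant marker in each of 2 lists. For the oligodendrocyte, the glia of central myelin, Mog had 12, Mobp 1, Opalin 3 and Olig2 9 counts over all 10 libraries, and the whole list of 7 summed to 1.25 to 2.48 CPM in young and 1.65 to 3.14 CPM in aged bone. Most of that was Myrf (1.51 and 1.76 CPM on average), and Ermn had 101 counts. For the melanocyte, Tyrp1 had 11, Dct 15 and Mlana 57 counts, and the list summed to 1.84 to 2.69 and 2.26 to 2.98 CPM. Most of that was Pmel (1.92 and 2.17 CPM on average). Myrf and Pmel were thus above Sox10 in CPM, which are not per length, and their part in the levels of the 6 genes was not tested. The lists of Schwann cell and myelin genes were mixed in level too. Egr2 and Erbb3 were above 1 CPM on average at both ages, whereas Gjb1 had 7, Sox2 22 and Pou3f2 5 counts over all libraries. Which cells gave the transcripts of the 6 genes was not tested.

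Muscle, which adheres to bone and carries its own nerves, was measured beside Prx and Ngfr. The summed level of 18 skeletal muscle genes ranged from 21498 to 63718 CPM in young and from 36431 to 100352 CPM in aged libraries (exact permutation p = 0.119, adjusted over 16 lists p = 0.272). Of 17 tested, none was called by edgeR, 4 had an unadjusted p under 0.05 (25.7% of all tested genes did) and 16 had a log2 fold change above 0, as did 11248 of all 22088 tested genes. Their mean log2 CPM was 9.71 in young and 10.3 in aged bone (exact permutation p = 0.222). With that mean as a covariate the log2 fold change of Prx was 0.43 (edgeR, adjusted p = 0.154), that of Ngfr 0.60 (adjusted p = 0.245) and that of Mbp 0.27 (adjusted p = 0.198). Between mice of one age, a relation computed after the values were seen, the muscle mean had an r of 0.542 with Prx (rho 0.527), 0.539 with Ngfr (rho 0.479) and -0.567 with Mbp (rho -0.527), none of which passed over 6 genes (exact permutation, adjusted p = 0.259 for each r). Without the 2 libraries farthest from the median of the muscle mean, these r were 0.389, 0.486 and -0.364. With the muscle covariate, 4 of the 10 calls among nerve genes ended in edgeR, those of Gfra2 (adjusted p = 0.0644), Slc2a1 (0.0642), Ntrk3 (0.0742) and Tenm2 (0.108), as did that of the matrix gene Bglap2 (0.0575). The part of muscle in the differences of Prx and Ngfr was otherwise not tested.

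**Figure D5:**
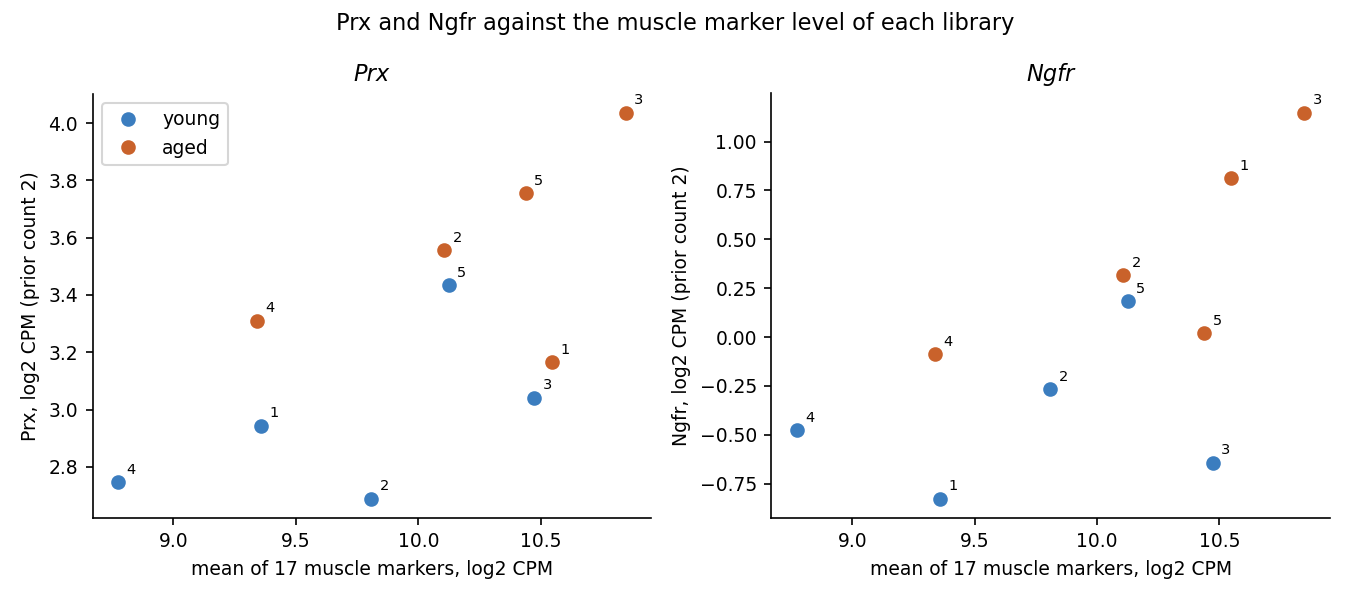
Mean log2 CPM of the tested skeletal muscle markers (x axis) against log2 CPM of Prx (left) and Ngfr (right; y axes), 1 point per library, young and aged in different colours and numbered by replicate. Aged 3 is highest on all axes, and young and aged libraries overlap along the muscle axis.

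Stromal and matrix markers had lower sums in aged bone, which did not pass after adjustment over the lists. Both had the smallest p that the exact permutation test over 126 splits can give (0.00794). Not passing over 16 lists therefore does not measure how far these sums lay apart. The summed level of 9 marrow reticular stromal markers was 945 to 1122 CPM in young and 679 to 941 CPM in aged libraries, without overlap (exact permutation p = 0.00794, adjusted over 16 lists p = 0.0635). None of the 9 was called by edgeR, and 4 had an unadjusted p under 0.05, against 25.7% of all tested genes. The 10 osteoblast and fibroblast matrix genes summed to 48576 to 99212 CPM in young and 19648 to 48128 CPM in aged bone (exact permutation p = 0.00794, adjusted p = 0.0635). By edgeR 8 of 10 fell, against 3.61% of all tested genes, among them Col3a1 (log2 fold change -2.69, edgeR adjusted p = 7.55e-05), a collagen of fibroblasts. Endothelial markers (335 to 455 and 364 to 460 CPM) and blood markers (795 to 1322 and 702 to 2058 CPM) overlapped between the ages in their sums, which abundant genes dominate. Within these lists, Emcn of bone vessels fell from 9.03 ± 1.69 to 5.94 ± 0.906 CPM (edgeR, adjusted p = 0.0284), Cd79b of B cells fell from 33.3 ± 1.39 to 20.9 ± 4.12 CPM (adjusted p = 0.00674) and Cd3e of T cells rose from 1.37 ± 0.288 to 3.27 ± 1.77 CPM (adjusted p = 0.0227). With the mean of the blood markers as a covariate, edgeR called 2948 genes in all. Prx was among them at 0.67 on the log2 scale (adjusted p = 0.0132), as was Ngfr at 0.98 (adjusted p = 0.0208).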

How the data were processed

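Counts of reads per gene were deposited. Per the paper's methods the authors made them with Cutadapt 2.10, STAR 2.7.8a on GRCm38.p6 and featureCounts 2.0.2, while the labels name a human build (hg38). Neither the annotation release nor the strand setting is stated in the sources used here. The 10 count columns matched the 10 mice by name, and no pair of libraries was the same within sampling noise. Differences were fitted in edgeR 4.0.16 (R 4.3.3): filter on low counts (minimum 10, minimum total 15), TMM, robust quasi-likelihood fit, and Benjamini-Hochberg adjustment over all 22088 tested genes. Standard errors are the log2 fold change over the root of F, and 95% intervals are normal. CPM values and correlations (log2, prior count 2) were computed from the deposited counts. Single values were compared by exact permutation over 126 splits. The steps were tested on simulated data. Alternatives were DESeq2 1.42.0, voom of limma 3.58.1, other scalings, filters and prior counts, muscle and blood covariates, a replicate block, and leaving out each library. Members, lists and tests were chosen with earlier results of these data known, so none is independent evidence. Named are the 6 genes, up to 3 called genes per list and direction or else its 2 most abundant, and the 5 genes most like each member. Others are marked. Figures were made with Python 3.11.15 and matplotlib 3.10.9. Protein sequences were not used here. Some single genes of the lists are not reported here.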

Additional observations from a re-analysis of the deposited data

Results flagged for a closer look

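Of 44 groups of 5 libraries examined, 2 held a library that stood far from the other 4, near the 1 in 20 groups that chance gives. None of the 12 groups of the 6 genes did. The summed level of the melanocyte markers, mostly Pmel, was 2.98 CPM in aged 2 and 2.26 to 2.35 CPM in the other aged libraries. Aged 2 was also the highest aged library for Sox10 (1.97 CPM), a gene that melanocytes share. Sox10 was at 1.82 CPM in aged 3, whose melanocyte sum was among the other 4, and the part of melanocytes in its level was not tested. The osteoblast and fibroblast matrix genes summed to 48128 CPM in aged 5 and to 19648 to 26796 CPM in the other aged libraries, just under the lowest young library (48576 CPM).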

How the results depend on the processing

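Counts of called genes moved most. Higher calls among all genes were 812, with 285 under total counts alone, 1545 with DESeq2, 1666 with blood markers as a covariate and 300 to 856 without 1 library. Lower calls were 798, with 1283 with DESeq2, 1282 with the blood covariate and 386 to 830 without 1 library. Among the 6 genes the higher calls were 0, with 1 (Prx) without a filter on low counts (log2 fold change 0.60, edgeR adjusted p = 0.0332) and with the replicate block (0.60, adjusted p = 0.0342), and 2 (Prx and Ngfr) with DESeq2 (0.61 and 0.91) and with the blood covariate (0.67 and 0.98). Without 1 library they were 0 to 2, and lower calls were 0 throughout. The log2 fold change without 1 library ranged from 0.47 to 0.74 for Prx, 0.69 to 1.09 for Ngfr, 0.22 to 0.57 for Sox10, 0.11 to 0.25 for Mbp and -0.27 to -0.07 for Pmp22. That of Gfra3 ranged from -0.36 to 0.12, and the reversed sign came without young 5 (edgeR, adjusted p = 0.852). Genes of the other lists called higher were 7, with 3 under total counts alone, 12 with the blood covariate and 3 to 7 without 1 library, and those called lower were 14, with 10 to 16 without 1 library. Pairs of the 6 genes that passed were 0, and 0 to 3 without 1 library. Causes were not tested.

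Replicate numbers did not pair the mice: same-numbered libraries had correlated deviations of -0.154, 0.0387, 0.169, 0.159 and -0.0841, and 1 of 5 young libraries correlated best with its own number. With the replicate block edgeR called 957 genes higher and 675 lower, Prx among the former, and Ngfr had an adjusted p of 0.127. A filter at 1 CPM in 5 libraries left out Ngfr and Gfra3. Gfra3, Ngfr and Sox10 rest on 8 to 99 counts per library, and the shares of counting error and of spread between mice in their errors were not separated.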
